A study of Mus musculus with 33 samples.

Results

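The CD127hi Tregs of the tolerant spleen were compared with the CD4+Foxp3- T cells of the same organ by bulk RNA-Seq. The comparison took the 3 libraries titled SP/CD127highTregs and the 3 titled SP/Tolerant-CD4+, 6 of the 33 libraries of the series, and all 31054 features of the count files. Both groups came from DEREG mice, C57BL/6 mice with a transgene that places a diphtheria toxin receptor and enhanced GFP (EGFP) under the Foxp3 promoter, so that GFP marked the Foxp3+ cells. The mice carried 4000 islet equivalents of porcine neonatal islet cell clusters (NICC) under the renal capsule. They had been given 500 µg of CTLA4-Fc on day 0, and 500 µg of MR-1, an antibody against CD154, at intervals from day 0 to day 6. Spleens were taken on day 100, and toxin was not part of the treatment in the labels of these groups. Ages were not given in the sources used here.

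Live cells were sorted as CD4+GFP+CD127hi (CD127hi Tregs) or as CD4+GFP- (CD4+Foxp3- T cells). CD127 divided the Tregs alone, so the CD4+Foxp3- T cells were an undivided population of naive, memory and helper cells. Each library was made from a pool of mice by the methods, and which mice entered which library was not given, so p-values measured the spread between these libraries, which may be technical in part. By the paper, the tolerant recipients were male and came from separate transplant experiments. The tolerant groups may thus share mice, and the spread may hold differences between those experiments. Naive mice, without a graft or treatment, gave 3 libraries of CD4+GFP+ Tregs and 3 of CD4+GFP- T cells, and the tolerant spleens also gave 3 libraries of CD127-/lo Tregs. By the methods, the naive spleen samples drew on 3 mice, fewer than separate pools of several mice each would need, so the naive libraries of a group may share animals, and the naive values and the tests that use them may then measure technical spread. These libraries were used to place the differences found here.

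Tregs are CD4+ T cells that restrain other immune cells, and their identity rests on the transcription factor Foxp3. They deplete IL-2 through a high-affinity receptor, remove costimulatory ligands through CTLA4, and release suppressive mediators. CD127, the α chain of the IL-7 receptor, is carried by resting and memory T cells and is low on most Tregs, and CD127hi Tregs have been described as memory-like. Conventional CD4+ T cells supply help through cytokines and CD154, and in the resting state they recirculate through lymphoid organs.

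Genes received between 3312714 and 4615283 read pairs per library in the CD127hi Tregs and between 3776645 and 4602521 in the CD4+Foxp3- T cells. Levels are given as CPM, the read pairs of a gene scaled to a fixed library total with TMM factors, and are compared between libraries, never between genes. A gene without a read pair in a library may still lie below a limit of 3 counts, which came to 0.637 to 0.918 CPM. These limits and the counting intervals given below cover counting error only. The log2 CPM of 2 libraries correlated across genes at r = 0.676 to 0.737 within the CD127hi Tregs, at 0.81 to 0.87 within the CD4+Foxp3- T cells and at 0.584 to 0.704 between the groups. The share of mapped read pairs outside genes was 35.8% to 41.9% in the CD127hi Tregs and 27.8% to 38.2% in the CD4+Foxp3- T cells. The share of read pairs without a mapped position was 9.24%, 9.76% and 13.2% in CD127hi replicates 1, 2 and 3 and 6.44%, 6.83% and 6% in the CD4+Foxp3- T cells, and the 10 most counted genes held 9.98% to 12.2% and 7.84% to 9.81% of the gene counts. Neither range overlapped between the groups, and the part of these differences in the results was not tested.

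The genes that defined the sort were read first. Foxp3 (chrX:7573644-7595245, plus strand, GRCm38) was counted at 464, 425 and 574 CPM in the CD127hi Treg libraries and 0.456, 1.5 and 5.15 CPM in the CD4+Foxp3- T cell libraries. The transgene reporter EGFP was at 127, 75.6 and 149 CPM in the CD127hi Tregs and at 0 in all 3 CD4+Foxp3- T cell libraries. Both separated the groups without overlap, as the gate on GFP required. Cd4 was at 215, 85.1 and 111 CPM in the CD127hi Treg libraries and 239.8, 220.3 and 253 CPM in the CD4+Foxp3- T cell libraries, with a log2 fold change of -0.79 ± 0.65 and an adjusted p of 0.755 (quasi-likelihood test of edgeR, adjusted by the Benjamini-Hochberg method as all adjusted p below). The T cell receptor chain gene Cd3e was at 314, 374 and 371 CPM in the CD127hi Treg libraries and 419, 384 and 444 CPM in the CD4+Foxp3- T cell libraries (log2 fold change -0.24 ± 0.46, adjusted p = 1). Il7r, which encodes CD127, was at 1236, 1082 and 1198 CPM in the CD127hi Treg libraries and 1350.4, 876 and 1105 CPM in the CD4+Foxp3- T cell libraries. Its groups overlapped, and the log2 fold change was 0.08 ± 0.36 with an adjusted p of 1, so Tregs chosen for high CD127 carried Il7r mRNA in the range of the undivided CD4+Foxp3- T cells. In the CD127-/lo Tregs of the same spleens, Il7r was at 311 ± 45.6 CPM (mean ± SD, n = 3).

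Across the 25347 genes tested, 82 passed an adjusted p of 0.05 in a model of all 33 libraries. Of these, 49 were higher in CD127hi Tregs, which is 0.193% of the genes tested, and 33 were lower, which is 0.130%. At an unadjusted p under 0.05 there were 2092 genes (8.25%), and DESeq2 called 271 (1.07%). The CPM of 73 of the 82 did not overlap between the groups, 40 higher and 33 lower. Over all genes tested, the CD127hi libraries lay above every CD4+Foxp3- library for 6.98% and below for 6.26%. In a model of the 6 compared libraries alone, 597 genes passed, 301 higher (1.19%) and 296 lower (1.17%), and 75 of the 82 were among them with the same direction. A gene is called here when it passed in the model of all libraries, and a gene that passed in the model of the 6 libraries alone is named as such, with "only" meaning that it did not pass in the other of these models.

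Calls depended on single libraries. The count fell to 48 without CD4 replicate 1 and to 47 without CD127hi replicate 3, and it lay between 55 and 81 without each of the other libraries. Of the 82 calls, 38 were lost without CD4 replicate 1, 24 without CD4 replicate 2, 29 without CD4 replicate 3, 29 without CD127hi replicate 1, 20 without CD127hi replicate 2 and 41 without CD127hi replicate 3. There were 27 that stood whichever library was left out. The 20 higher ones were Foxp3, EGFP, Ikzf2, Il2ra, Ctla4, Itgae, Lrrc32, Klrg1, S100a10, Ahnak, Bicd1, Coro2a, Serinc3, AW112010, Wfdc17, Lyz2, Jchain, Ighd, Iglc2 and Ms4a1. The 7 lower ones were Pde3b, Dapl1, Ly6c2, Klrk1, Klrd1, Gmpr2 and Srsf7. Of the 82, 33 were also called by the likelihood ratio test of edgeR, 62 by DESeq2 and 24 when genes needed 10 or more counts in 3 or more libraries. Foxp3, EGFP, Ikzf2, Il2ra, Klrg1, Lrrc32, Itgae, Ahnak, Bicd1 and Coro2a were called under each of these settings as well as in each leave-out. None of these 3 settings called Il1rl1, Maf, Rgs1, Klrd1, Lyz2, Ifi27l2a, Mef2c, Cd79b, Ly6d, Iglc2, Trim7, Atp6v1g3, Arhgdib, Ms4a4b, mt-Nd2 or mt-Nd4. An exact permutation test of 3 libraries against 3 cannot give a two-sided p below 0.1, so no single gene was tested that way.

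**Figure D1:**
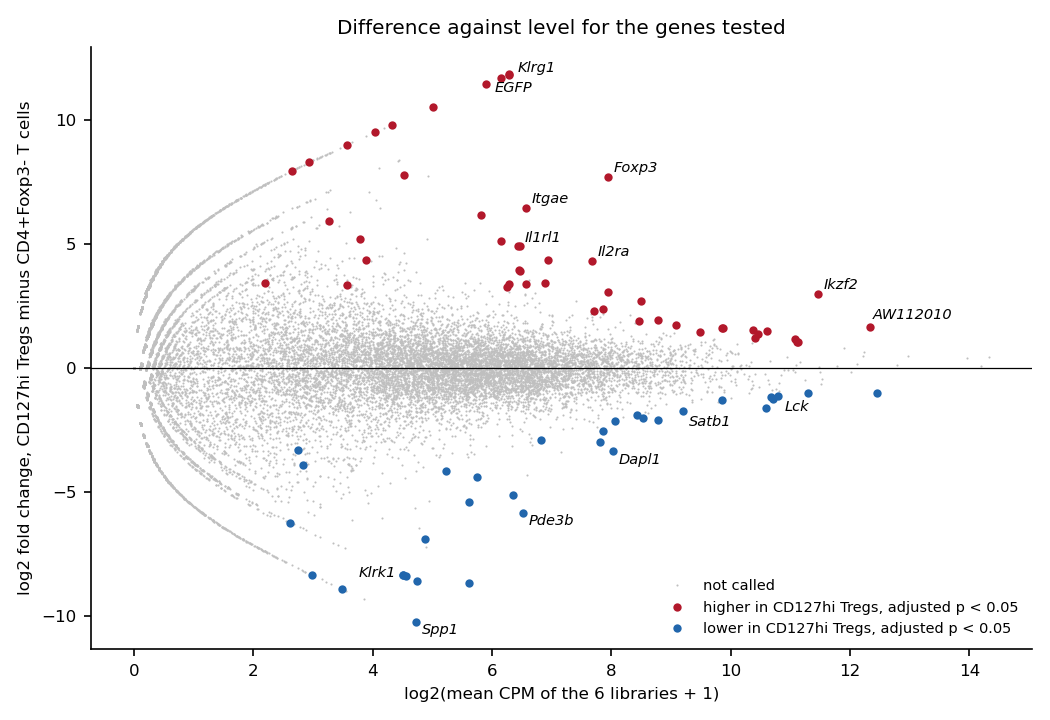
The log2 fold change of CD127hi Tregs minus CD4+Foxp3- T cells (vertical axis) is plotted for each of the 25347 genes tested against log2 of its mean CPM over the 6 libraries plus 1 (horizontal axis). The 49 genes called higher are red, the 33 called lower are blue and the rest are grey, and the curved rims on the left are genes at 0 in every library of 1 group.

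Genes of Treg identity were in part higher in CD127hi Tregs. Of 18 genes of this list, 7 were called higher and none lower, all 18 had a log2 fold change above 0, and the CD127hi libraries lay above every CD4+Foxp3- library for 16. The median log2 fold change was 2.63, against 0 over all genes tested. Foxp3 chose the cells and its log2 fold change of 7.67 ± 0.75 (adjusted p = 9.09e-17) describes the sort. In the model of the 6 libraries, 12 of the 18 passed.

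Ikzf2, which encodes the transcription factor Helios, was at 5152, 5725 and 4135 CPM in the CD127hi Treg libraries and 475, 685 and 736 CPM in the CD4+Foxp3- T cell libraries. The CD127hi libraries were all several-fold above the CD4+Foxp3- libraries (log2 fold change 2.98 ± 0.24, adjusted p = 2.65e-24). Ctla4, the receptor that strips B7 ligands from antigen-presenting cells, was at 805, 503 and 565 CPM in the CD127hi Treg libraries and 96.9, 98.7 and 93.7 CPM in the CD4+Foxp3- T cell libraries, without overlap (log2 fold change 2.69 ± 0.51, adjusted p = 0.000355). Itgae, which encodes the αE integrin CD103, was at 115, 194 and 247 CPM in the CD127hi Treg libraries and 0.912, 2.74 and 2.58 CPM in the CD4+Foxp3- T cell libraries, close to the limit of detection in the second group. Its log2 fold change was 6.45 ± 1.07, with an adjusted p of 1.49e-05. Lrrc32 encodes GARP, which holds latent TGF-β on the Treg surface. It was at 70.7, 26.9 and 34.7 CPM in the CD127hi Treg libraries and 0.456, 0 and 0 CPM in the CD4+Foxp3- T cell libraries, a ratio of 291 (95% counting interval 80.1 to 2410) and an adjusted p of 0.000659. Further members, named after their values were seen, did not pass in the model of all libraries. Ikzf4, a relative of Ikzf2 that acts with Foxp3, was at 106, 156 and 161 against 16.4, 13.7 and 12.4 CPM (adjusted p = 0.0575, and 2.59e-07 with the 6 libraries). Nrp1, a surface receptor of thymus-derived Tregs, was at 252, 343 and 396 against 43.5, 143 and 49.7 CPM (adjusted p = 0.069, and 1.68e-06 with the 6 libraries).

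**Figure D2:**
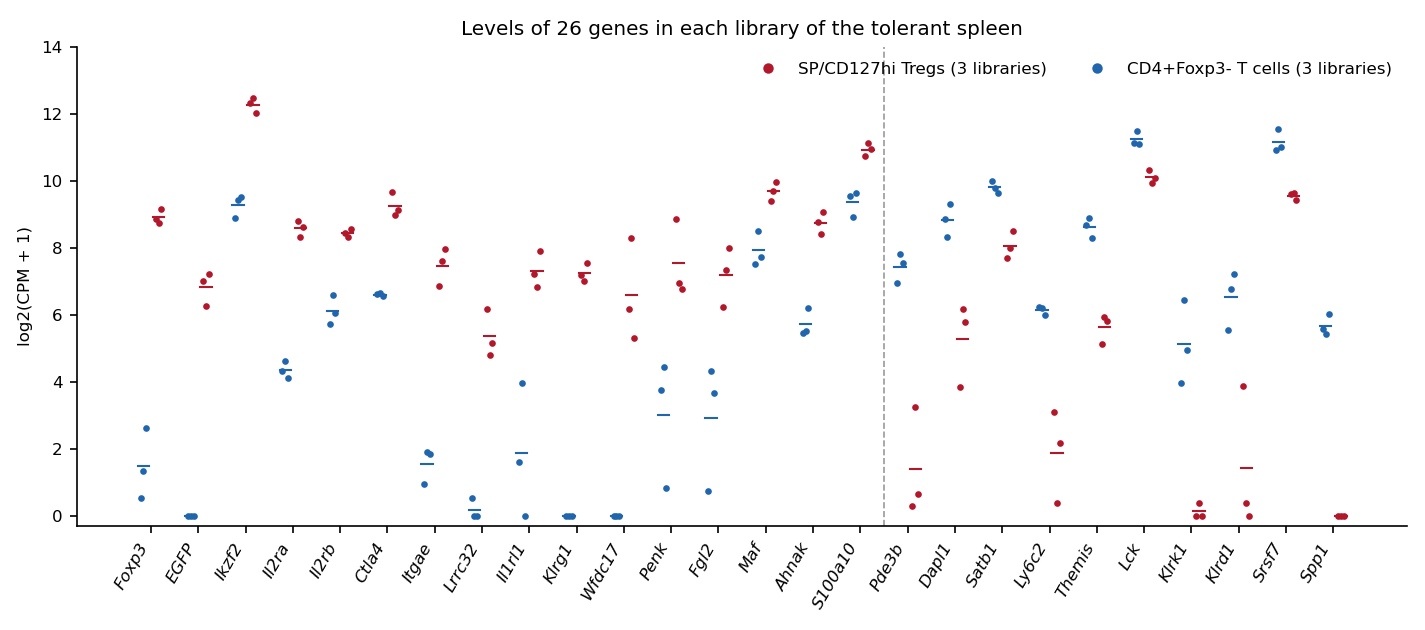
The level of 26 genes is plotted for each library as log2(CPM + 1), with the 3 CD127hi Treg libraries in red, the 3 CD4+Foxp3- T cell libraries in blue and a bar at the mean of each group. The 16 genes left of the dashed line were higher and the 10 to its right lower in CD127hi Tregs, and no gene shown has overlapping groups.

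The chains of the IL-2 receptor family were read singly. Il2ra, the CD25 chain that gives the IL-2 receptor its high affinity, was at 443, 319 and 395 CPM in the CD127hi Treg libraries and 18.9, 23.7 and 16.2 CPM in the CD4+Foxp3- T cell libraries. It was low but detected in every CD4+Foxp3- library and clearly higher in every CD127hi library (log2 fold change 4.30 ± 0.59, adjusted p = 2.02e-08). Il2rb, the signalling chain shared with the IL-15 receptor, was at 345, 318 and 381 CPM in the CD127hi Treg libraries and 52, 95.2 and 64.9 CPM in the CD4+Foxp3- T cell libraries (log2 fold change 2.30 ± 0.55, adjusted p = 0.0186). The groups of Il2rb did not overlap, but the call was lost without CD4 replicate 1 or 3 or CD127hi replicate 1 or 3, with an adjusted p of up to 0.251. Il2rg, the common γ chain, lay the other way, at 541, 332 and 263 against 1177, 677 and 925 CPM, and passed only in the model of the 6 libraries (log2 fold change -1.29 ± 0.39, adjusted p = 0.158 and 0.000498 with the 6 libraries). Socs2 and Cish, feedback regulators induced by STAT5, were at 82.4, 103 and 141 against 3.42, 13.2 and 21.6 CPM and at 119.7, 89.1 and 37.3 against 20.1, 19.9 and 15.5 CPM, and both also passed only there (adjusted p = 2.86e-05 and 0.0296). Over the 18 genes of common γ chain receptors and STAT5 signalling, 2 were called higher and none lower, and the median log2 fold change was 0.81.

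Il1rl1 and Klrg1 mark effector and tissue-type Tregs. Il1rl1 (chr1:40429570-40465415, plus strand, GRCm38) encodes ST2, the receptor of the alarmin IL-33, and was at 147, 114 and 237 CPM in the CD127hi Treg libraries and 2.05, 14.7 and 0 CPM in the CD4+Foxp3- T cell libraries. The CD127hi libraries were far above all CD4+Foxp3- libraries, which themselves ranged from 0 to a clear signal in replicate 2. The log2 fold change was 4.89 ± 1.19 with an adjusted p of 0.0228, and the call was lost without CD4 replicate 1 or 3 or CD127hi replicate 3, with an adjusted p of up to 0.251. Over all settings tried, its adjusted p ran from 2.09e-15 to 0.265 and its log2 fold change from 4.31 to 7.26. Klrg1 (chr6:122270596-122282882, minus strand, GRCm38) encodes a lectin-like inhibitory receptor of terminally differentiated lymphocytes. It was at 144, 129 and 187 CPM in the CD127hi Tregs and at 0 in the 3 CD4+Foxp3- libraries. Against the highest detection limit of those libraries, 0.773 CPM, it was at least 199-fold higher (adjusted p = 2.09e-06), and the call stood in each leave-out and each other setting tried.

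Among the other receptors of the IL-1 family, Il18r1, a chain of the IL-18 receptor, was at 120.4, 221 and 265 CPM in the CD127hi Treg libraries and 30.8, 50.3 and 81.4 CPM in the CD4+Foxp3- T cell libraries. The groups did not overlap, and the gene passed with the 6 libraries only (adjusted p = 0.404 and 0.000455). Of the 9 alarmin receptor genes tested, Il1rl1 was the 1 called, and the groups overlapped for Il18rap, Il1r1, Il1r2 and Il1rap. Of 13 coinhibitory receptor genes, Klrg1 and Ctla4 were called higher and none lower. Btla, a receptor of resting lymphocytes, was at 151, 186 and 129.7 against 339, 408 and 473 CPM and passed with the 6 libraries (log2 fold change -1.39 ± 0.49, adjusted p = 0.287 and 0.00223). Cd96 was at 170, 115 and 96.1 against 304, 251 and 205 CPM (adjusted p = 0.629). Havcr2 and Lag3 stayed near the limit of detection in both groups, with highest values of 4.88 and 1.5 CPM.

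Suppressive and secreted effectors were in part higher. Of 19 genes, 3 were called higher and none lower, 9 passed with the 6 libraries, and the median log2 fold change was 2.26. Besides Lrrc32, Penk, which encodes the precursor of enkephalins, was at 468, 124 and 108 CPM in the CD127hi Treg libraries and 12.5, 20.7 and 0.773 CPM in the CD4+Foxp3- T cell libraries. The groups did not overlap, although CD127hi replicate 1 was well above the other CD127hi libraries and the CD4+Foxp3- libraries spread widely (log2 fold change 4.36 ± 0.98, adjusted p = 0.0087). Fgl2, which encodes a secreted fibrinogen-like immune suppressor, was at 74.3, 159.8 and 257 CPM in the CD127hi Treg libraries and 0.684, 19.2 and 11.8 CPM in the CD4+Foxp3- T cell libraries (log2 fold change 3.95 ± 0.98, adjusted p = 0.028). Both calls were lost in some leave-outs, those of Penk (CD4 replicate 1 or 3 or CD127hi replicate 1, adjusted p up to 0.193) and Fgl2 (CD4 replicate 1 or 3 or CD127hi replicate 3, adjusted p up to 0.357). Areg, which encodes the repair factor amphiregulin, was at 19.7, 9.49 and 22.9 CPM and Gzmb, the cytotoxic protease granzyme B, at 15.5, 18.1 and 15.9 CPM, and each was at 0 in the 3 CD4+Foxp3- libraries. These were at least 22.5-fold and at least 21.3-fold above the limit, and they passed with the 6 libraries (adjusted p = 0.00488 and 0.00649) but not with all (adjusted p = 0.128 and 0.122). Entpd1, the ectoenzyme CD39, was at 45.4, 22 and 61.9 against 0.912, 5.98 and 0 CPM (adjusted p = 0.175, and 0.00446 with the 6 libraries). Il10, named after its values were seen, was at 12.1, 63.7 and 50.9 against 0, 4.98 and 0 CPM (adjusted p = 0.322, and 0.00161 with the 6 libraries).

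Among 14 transcription factors of effector and tissue Tregs, 1 was called higher and none lower, and the median log2 fold change was 1.50. The called factor was Maf, which drives IL-10 and follicular programmes in T cells. It was at 669.5, 836 and 1004 CPM in the CD127hi Treg libraries and 182, 364 and 213 CPM in the CD4+Foxp3- T cell libraries, without overlap (log2 fold change 1.73 ± 0.43, adjusted p = 0.0326), and the call was lost without CD4 replicate 1 or 3 or CD127hi replicate 3, with an adjusted p of up to 0.324. Gata3, the Th2 factor that also acts in ST2+ Tregs, was at 281, 224 and 248 CPM in the CD127hi Treg libraries and 58.8, 62.3 and 61 CPM in the CD4+Foxp3- T cell libraries, with tight groups (log2 fold change 2.05 ± 0.71). Rora, a factor of Th17 and tissue Tregs, was at 404, 233 and 238 CPM in the CD127hi Treg libraries and 41.5, 70.3 and 22.9 CPM in the CD4+Foxp3- T cell libraries (log2 fold change 2.70 ± 0.79). Both passed only with the 6 libraries (adjusted p = 2.86e-05 and 3.31e-09, against 0.269 and 0.136 with all). Prdm1, which encodes Blimp-1, was at 61.1, 19 and 165 against 12.3, 14.5 and 7.47 CPM and behaved likewise (adjusted p = 0.402, and 0.00226 with the 6 libraries). Id2, an inhibitor of E proteins, lay in the opposite direction at 619.6, 329 and 264 against 955, 800.3 and 808 CPM (log2 fold change -1.08 ± 0.43, adjusted p = 0.396, and 0.00808 with the 6 libraries).

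Of the 19 helper lineage genes tested, Maf was again the 1 called, and the median log2 fold change was -0.19. The follicular helper cytokine gene Il21 was at 0.212, 0 and 1.45 CPM in the CD127hi Treg libraries and 42.9, 89.2 and 23.9 CPM in the CD4+Foxp3- T cell libraries. The CD4+Foxp3- libraries all carried it and the CD127hi libraries were near the limit of detection, and it passed with the 6 libraries (adjusted p = 1.18e-06) but not with all (log2 fold change -6.46 ± 2.17, adjusted p = 0.256). Il4 was at 7.85, 2.14 and 0.289 against 29.2, 46.1 and 24.7 CPM, without overlap and without a call in either model (adjusted p = 0.66 and 0.0949). Il5 and Il13 were at 0 in all 6 libraries, each of which allows up to its limit of 0.637 to 0.918 CPM.

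Genes of the S100 and cytoskeletal group, which mark activated and migrating T cells, were in part higher. Of 21, 3 were called higher and none lower, 7 passed with the 6 libraries, and the median log2 fold change was 1.01. S100a10, a calcium-binding partner of annexin A2, was at 1717, 2228 and 1969.6 CPM in the CD127hi Treg libraries and 750.5, 488 and 797 CPM in the CD4+Foxp3- T cell libraries (log2 fold change 1.54 ± 0.29, adjusted p = 0.000355). Ahnak, a large scaffold protein that binds it, was at 437, 340 and 536 CPM in the CD127hi Treg libraries and 43.1, 44.4 and 72.4 CPM in the CD4+Foxp3- T cell libraries (log2 fold change 3.04 ± 0.57, adjusted p = 0.000331). Both sets of libraries were apart and both calls held in each leave-out. S100a6 was at 435, 946 and 709 CPM in the CD127hi Treg libraries and 132, 170.2 and 241 CPM in the CD4+Foxp3- T cell libraries (log2 fold change 1.94 ± 0.48, adjusted p = 0.0297), and its call was lost without any CD4 replicate or CD127hi replicate 2 or 3, with an adjusted p of up to 0.344. Myo1f, an unconventional myosin, was at 151, 186 and 158 against 28.3, 20.4 and 16.2 CPM, and Vim, the intermediate filament vimentin, at 321, 380.1 and 509.8 against 163, 92.4 and 132 CPM. Both passed with the 6 libraries only (adjusted p = 5.82e-07 and 8.58e-05, against 0.177 and 0.209).

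Adhesion genes went in both directions. Of 22, Itgae was called higher and Ly6c2 lower, and the median log2 fold change was 0.43. Cd44, the hyaluronan receptor raised on memory T cells, was at 310.1, 399 and 435 CPM in the CD127hi Treg libraries and 68.8, 95.9 and 87.3 CPM in the CD4+Foxp3- T cell libraries. Every CD127hi library was above every CD4+Foxp3- library, with an adjusted p of 0.08 in the model of all libraries and of 9.62e-08 in that of the 6 (log2 fold change 2.18 ± 0.60). Itgb8, an integrin chain that activates TGF-β, was at 145, 266 and 141 against 58.6, 21.2 and 35 CPM (adjusted p = 0.219 and 3.81e-05). Itga2 was at 10.8, 60.3 and 48.6 against 1.82, 3.74 and 0.515 CPM (adjusted p = 0.403 and 0.00575). None of the 20 chemokine and lipid homing receptor genes was called with all libraries, 8 had an unadjusted p under 0.05 and DESeq2 called 3, and with the 6 libraries 4 were higher and 3 lower. Cxcr6 was at 1.7, 25.4 and 0 CPM in the CD127hi Treg libraries and 137, 230.2 and 178 CPM in the CD4+Foxp3- T cell libraries, low in each CD127hi library and high in each CD4+Foxp3- library (log2 fold change -4.33 ± 1.14, adjusted p = 0.0534, and 1.2e-13 with the 6 libraries). Ptger4, a prostaglandin E2 receptor, was at 258, 147 and 161 against 8.21, 15.9 and 68.2 CPM (adjusted p = 0.183 and 1.58e-06). Ccr3 was at 5.94, 2.14 and 74.7 CPM and at 0 in the CD4+Foxp3- libraries, with most of its signal in CD127hi replicate 3 (adjusted p = 0.103 and 5.08e-05).

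Costimulatory receptors and ligands gave no call among 16 genes in the model of all libraries, where 7 had an unadjusted p under 0.05. DESeq2 called 2 of them, and the model of the 6 libraries 5 higher and 2 lower. Tnfrsf1b, the TNF receptor TNFR2, was at 133, 109 and 175 CPM in the CD127hi Treg libraries and 12.3, 19.2 and 10 CPM in the CD4+Foxp3- T cell libraries (log2 fold change 3.32 ± 0.89, adjusted p = 0.066 and 3.3e-07). Tnfrsf4, which encodes OX40, was at 1001, 542 and 479 against 250.3, 316 and 191 CPM (adjusted p = 0.127 and 0.000199). The groups of both genes were apart. Cd40lg, which encodes CD154, the target of MR-1, was at 84.1, 63.7 and 46.9 CPM in the CD127hi Treg libraries and 482, 312 and 354 CPM in the CD4+Foxp3- T cell libraries, with all CD4+Foxp3- libraries above all CD127hi libraries (log2 fold change -2.56 ± 0.71, adjusted p = 0.0913 and 4.59e-10). Cd81 and Cd83 were at 214, 149.7 and 133 against 17.8, 13.7 and 31.2 CPM and at 207, 101 and 106 against 13.2, 0 and 36.1 CPM, and both passed with the 6 libraries (adjusted p = 4.12e-07 and 2.41e-06).

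Genes induced by IFN-γ were called singly. Of 30, 1 was called higher, 6 passed with the 6 libraries, all higher, and the median log2 fold change was 0.53. Gbp3, which encodes a guanylate-binding protein, was at 149, 256 and 86.8 CPM in the CD127hi Treg libraries and 7.07, 20.4 and 4.89 CPM in the CD4+Foxp3- T cell libraries (log2 fold change 3.92 ± 0.85, adjusted p = 0.00471), and it was not called without CD4 replicate 1 or 3 (adjusted p up to 0.102). Its relative Gbp2b, which is not on the list of 30, was at 59.4, 49.6 and 5.21 CPM and at 0 in the CD4+Foxp3- libraries, at least 49.3-fold higher (adjusted p = 0.0039), and was not called without CD4 replicate 1 or 3 (adjusted p up to 0.0594). CD127hi replicate 3 carried far less Gbp2b than the other CD127hi libraries. Gbp7 was at 488, 504 and 564 CPM in the CD127hi Treg libraries and 117, 143 and 91.2 CPM in the CD4+Foxp3- T cell libraries, just short of the threshold with all libraries (log2 fold change 2.15 ± 0.56, adjusted p = 0.0509, and 1.51e-08 with the 6 libraries). Ifngr1, the ligand-binding chain of the IFN-γ receptor, was at 615, 463 and 481 against 182, 30.9 and 239 CPM (adjusted p = 0.0881 and 3.25e-06).

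Of 22 genes induced by type I interferon, 1 was called and the median log2 fold change was 0.00. The called gene, Ifi27l2a, was at 2085, 2343 and 2455 CPM in the CD127hi Treg libraries and 1312, 484 and 684 CPM in the CD4+Foxp3- T cell libraries (log2 fold change 1.47 ± 0.30, adjusted p = 0.00165). Its groups did not overlap, but without CD4 replicate 2 the adjusted p was 0.072. The groups overlapped for Ifit1, Isg15 and Mx1, and none of them was called in either model.

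Genes of resting and recirculating T cells were in part lower in CD127hi Tregs. Of 18, 4 were called lower and none higher, 9 passed with the 6 libraries, all lower, and the median log2 fold change was -0.99. The CD4+Foxp3- libraries lay above every CD127hi library for 13 of them. Pde3b, a phosphodiesterase that degrades cyclic AMP and is repressed by Foxp3, was at 0.212, 8.57 and 0.579 CPM in the CD127hi Treg libraries and 124, 223 and 186 CPM in the CD4+Foxp3- T cell libraries. In 2 of the CD127hi libraries it was near the limit of detection and in replicate 2 somewhat above it (log2 fold change -5.84 ± 1.06, adjusted p = 0.000155). Dapl1, a transcript of resting T cells, was at 13.4, 71.3 and 53.8 CPM in the CD127hi Treg libraries and 460.3, 321 and 639 CPM in the CD4+Foxp3- T cell libraries (log2 fold change -3.36 ± 0.68, adjusted p = 0.00155). Satb1, a chromatin organizer of T cells, was at 207, 253 and 363 CPM in the CD127hi Treg libraries and 1030.2, 882 and 799.6 CPM in the CD4+Foxp3- T cell libraries (log2 fold change -1.72 ± 0.40, adjusted p = 0.0141), and Igfbp4, an insulin-like growth factor binding protein, at 2.55, 0.918 and 3.18 CPM in the CD127hi Treg libraries and 109, 88 and 85.7 CPM in the CD4+Foxp3- T cell libraries (log2 fold change -5.38 ± 1.40, adjusted p = 0.0483). All 4 were lower in each CD127hi library than in each CD4+Foxp3- library. The calls of Pde3b and Dapl1 held in each leave-out, and those that did not were Satb1 (CD4 replicate 1 or CD127hi replicate 1 or 2, adjusted p up to 0.154) and Igfbp4 (any CD4 replicate or any CD127hi replicate, adjusted p up to 0.244).

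The lymph node homing receptor Ccr7 was at 104, 61.5 and 53 CPM in the CD127hi Treg libraries and 368, 218 and 380.3 CPM in the CD4+Foxp3- T cell libraries, without overlap, and passed with the 6 libraries only (log2 fold change -2.14 ± 0.71, adjusted p = 0.253 and 1.09e-06). Ly6c1 was at 164, 158 and 199 against 754, 399.9 and 679.8 CPM and did likewise (adjusted p = 0.17 and 1e-06). Its neighbour Ly6c2 shares near-identical sequence with it, so reads of these genes can be hard to tell apart. Ly6c2 was at 7.64, 0.306 and 3.47 CPM in the CD127hi Treg libraries and 73.6, 72.5 and 62.6 CPM in the CD4+Foxp3- T cell libraries and was called (log2 fold change -4.15 ± 0.87, adjusted p = 0.00265). Further members were named after their values were seen. Lef1 and Tcf7, transcription factors of naive and central memory cells, were at 131, 75.6 and 196 against 486, 337 and 402 CPM and at 271, 249 and 396 against 608, 614 and 569 CPM, without overlap (adjusted p = 0.274 and 0.586, and 0.000166 and 0.0423 with the 6 libraries).

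Genes of T cell receptor signalling were partly lower. Of 21, 2 were called lower and none higher, 4 passed with the 6 libraries, all lower, and the median log2 fold change was -0.61. Themis, an adaptor of T cell receptor signalling, was at 33.8, 60.3 and 55.6 CPM in the CD127hi Treg libraries and 410.1, 477 and 312 CPM in the CD4+Foxp3- T cell libraries (log2 fold change -3.00 ± 0.68, adjusted p = 0.0102). Lck, the kinase that phosphorylates the receptor, was at 1292, 969.9 and 1077 CPM in the CD127hi Treg libraries and 2265, 2901 and 2194 CPM in the CD4+Foxp3- T cell libraries (log2 fold change -1.14 ± 0.26, adjusted p = 0.0125). Every CD127hi library was lower for both, and the calls were lost in the leave-outs of Themis (CD127hi replicate 1, adjusted p up to 0.0879) and Lck (CD4 replicate 2 or CD127hi replicate 2 or 3, adjusted p up to 0.172). Trbc1, a constant region of the receptor β chain, was at 1060.3, 1230.4 and 1405 against 2558, 2401 and 2123 CPM and passed with the 6 libraries only (adjusted p = 0.00766, against 0.17). Cd3d and Cd3g were at 997, 1107 and 791 against 2025, 1326 and 1663 CPM and at 1017, 1307 and 827 against 2091, 1405 and 1926 CPM, without a call in either model (adjusted p = 0.294 and 0.357 with all libraries).

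Of the 10 NK cell markers, some of which T cells also carry, 2 were called lower, Klrk1 and Klrd1, and 1 higher, Gzma, which is described with the markers of other cells. Klrk1, which encodes the activating receptor NKG2D, was at 0, 0.306 and 0 CPM in the CD127hi Treg libraries and 14.6, 85.7 and 29.9 CPM in the CD4+Foxp3- T cell libraries, where 1 read pair in CD127hi replicate 2 was the entire signal of that group. The ratio was 488 (95% counting interval 87.2 to 19300), with an adjusted p of 0.000758. Klrd1, which encodes CD94, was at 13.8, 0.306 and 0 CPM in the CD127hi Treg libraries and 45.8, 109 and 149 CPM in the CD4+Foxp3- T cell libraries (log2 fold change -4.38 ± 0.90, adjusted p = 0.00165). Both calls held in each leave-out. Nkg7, a cytotoxic granule gene, was at 51.8, 106 and 0 against 167, 173 and 236 CPM (adjusted p = 0.267, and 0.00103 with the 6 libraries). The 10 markers summed to 80.7, 107 and 57 CPM in the CD127hi Tregs and to 247, 377 and 421 CPM in the CD4+Foxp3- T cells, with Klra4 and Klra8 at 0 throughout, and its part in these results was not tested. Fewer cells of a type and less RNA per cell cannot be told apart in bulk libraries.

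**Figure D3:**
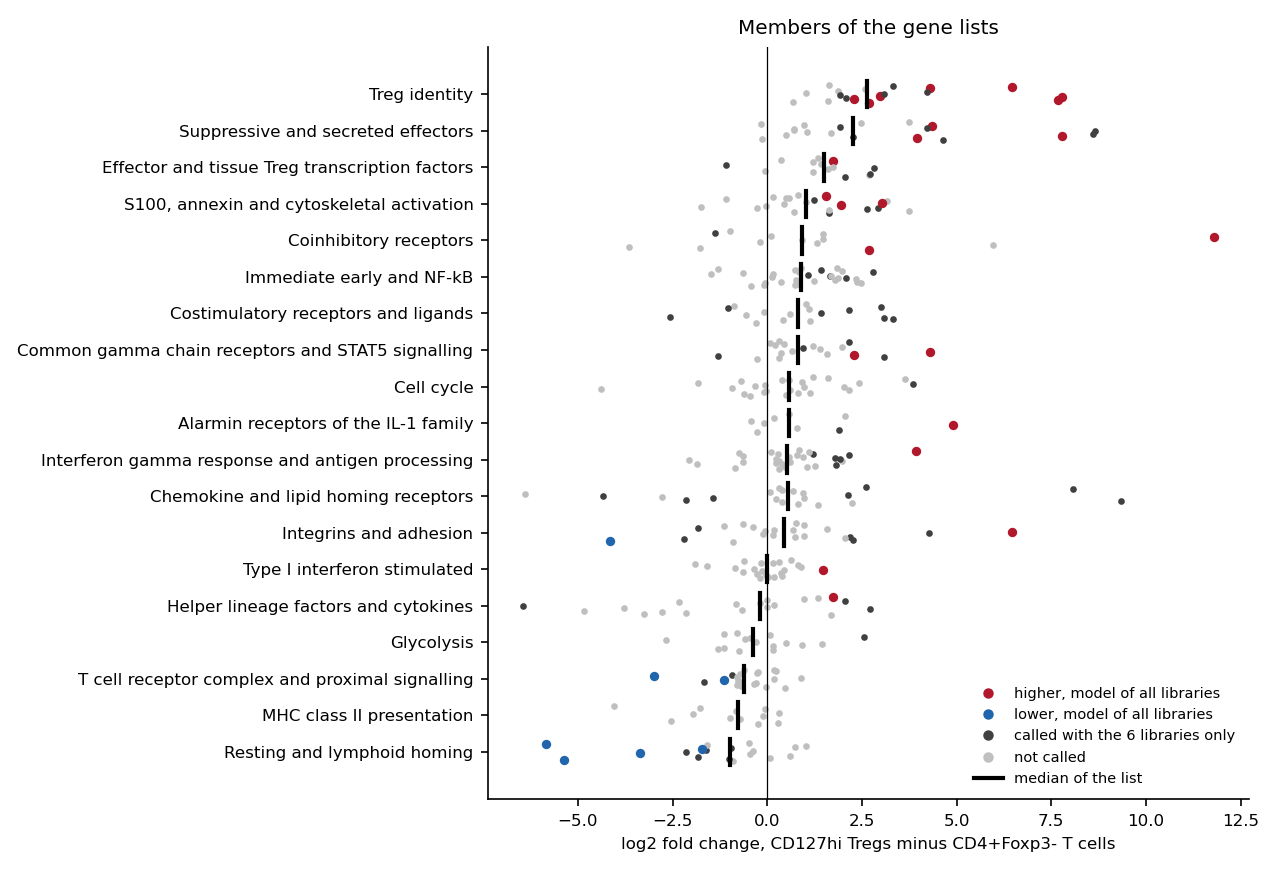
Each point is the log2 fold change (CD127hi Tregs minus CD4+Foxp3- T cells, horizontal axis) of 1 member of the 19 gene lists (rows), and the black bar is the median of the list. Red and blue points were called higher and lower with all libraries, black points passed with the 6 libraries only and grey points passed in neither, and the medians run from 2.63 for Treg identity to -0.99 for resting and lymphoid homing.

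The largest called differences lay outside these lists for the most part. Wfdc17 (chr11:83703991-83706268, plus strand, GRCm38), a small secreted whey acidic protein domain factor, was at 71.5, 311 and 38.5 CPM in the CD127hi Tregs and at 0 in the CD4+Foxp3- libraries. It was at least 182-fold higher (adjusted p = 5.46e-08), and CD127hi replicate 2 was several-fold above the other 2. Bicd1, an adaptor of dynein transport, was at 131, 85.1 and 112 CPM in the CD127hi Treg libraries and 0.228, 1.99 and 2.32 CPM in the CD4+Foxp3- T cell libraries (log2 fold change 6.15 ± 1.12, adjusted p = 0.000155). Atp6v1g3, which encodes a proton pump subunit, was at 17.4, 31.5 and 16.2 CPM against 0, at least 28.1-fold higher (adjusted p = 0.0405), and its call was lost without any CD4 replicate (adjusted p up to 0.258). The calls of Wfdc17 and Bicd1 held in each leave-out.

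In the lower direction, Spp1 (chr5:104435118-104441050, plus strand, GRCm38), which encodes the cytokine osteopontin, was at 0 in the 3 CD127hi libraries and at 46.5, 42.4 and 64.4 CPM in the CD4+Foxp3- libraries. The detection limits of the CD127hi libraries made it at least 55.6-fold lower (adjusted p = 0.0142). Sostdc1, a secreted antagonist of BMP and Wnt signals, was at 0, 0.612 and 0 CPM in the CD127hi Treg libraries and 62.2, 109 and 115 CPM in the CD4+Foxp3- T cell libraries, a ratio of CD4+Foxp3- T cells over CD127hi Tregs of 539 (95% counting interval 149 to 4460) (adjusted p = 0.0183). Gabrr2, a GABA receptor subunit gene, was at 0, 0.306 and 0 against 43.1, 65 and 26.8 CPM, Gm13546 at 0, 0.306 and 0 against 54.3, 53.3 and 46.9 CPM and A930029G22Rik at 0, 0.306 and 0 against 61.5, 36.9 and 32.7 CPM. In each of these 3 the CD127hi Tregs had 1 read pair in all and each CD4+Foxp3- library a clear signal (adjusted p = 0.0179, 0.0102 and 0.0228). Atp8b4, a phospholipid flippase gene, was at 0.425, 0.306 and 0.579 CPM in the CD127hi Treg libraries and 56.5, 57.8 and 55.6 CPM in the CD4+Foxp3- T cell libraries (log2 fold change -6.88 ± 1.57, adjusted p = 0.011).

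Ccne1, which encodes cyclin E1, and Pole3, a DNA polymerase ε subunit gene, were at 0 in the CD127hi Tregs and at 7.75, 5.98 and 47.9 CPM and 10, 8.47 and 23.2 CPM in the CD4+Foxp3- T cells (adjusted p = 0.0379 and 0.0453). Snn was at 0, 0.306 and 0 against 9.12, 11.2 and 10.3 CPM (adjusted p = 0.0087, and 0.172 with the 6 libraries, where it did not pass). All of these calls rested in part on single libraries. They were lost in the leave-outs of Spp1 (any CD127hi replicate, adjusted p up to 0.115), Sostdc1 (CD4 replicate 3 or CD127hi replicate 1 or 3, adjusted p up to 0.162), Gabrr2 (CD127hi replicate 1 or 3, adjusted p up to 0.162), Gm13546 (CD127hi replicate 1 or 3, adjusted p up to 0.129), A930029G22Rik (CD4 replicate 1 or CD127hi replicate 1 or 3, adjusted p up to 0.172), Atp8b4 (any CD127hi replicate, adjusted p up to 0.0878), Ccne1 (CD4 replicate 1 or 3 or any CD127hi replicate, adjusted p up to 0.276), Pole3 (CD4 replicate 1 or 3 or any CD127hi replicate, adjusted p up to 0.223) and Snn (CD127hi replicate 1 or 3, adjusted p up to 0.0807).

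Called genes outside the lists and the largest changes were named after their values were seen. AW112010 was the most firmly called of them, at 5759.8, 10769 and 7061 CPM in the CD127hi Treg libraries and 2335, 2631 and 2561 CPM in the CD4+Foxp3- T cell libraries, with all CD127hi libraries above (log2 fold change 1.65 ± 0.19, adjusted p = 1.8e-11). Srsf7, a splicing factor gene, was at 778, 802 and 682 CPM in the CD127hi Treg libraries and 1925, 2974 and 2087 CPM in the CD4+Foxp3- T cell libraries, with all CD127hi libraries below (log2 fold change -1.63 ± 0.30, adjusted p = 0.000178). Coro2a, a coronin that acts on actin, was at 238, 68.6 and 202 against 1.14, 4.24 and 11.3 CPM (adjusted p = 0.000355), Serinc3 at 1284, 1187 and 1688 against 433, 408 and 523 CPM (adjusted p = 0.00071) and Gmpr2, a guanosine monophosphate reductase gene, at 0.212, 13.2 and 0.289 against 129, 212 and 129 CPM (adjusted p = 0.00152). These 5 calls held in each leave-out. Rgs1, a brake on chemokine receptor signalling, was at 712, 611 and 342 CPM in the CD127hi Treg libraries and 115, 143 and 197 CPM in the CD4+Foxp3- T cell libraries (log2 fold change 1.87 ± 0.47, adjusted p = 0.0318), and Pim1, a kinase induced by STAT5, at 216, 148 and 282 CPM in the CD127hi Treg libraries and 13.4, 31.1 and 15.7 CPM in the CD4+Foxp3- T cell libraries (log2 fold change 3.42 ± 0.82, adjusted p = 0.0185). Both were higher in each CD127hi library, and the calls were lost in the leave-outs of Rgs1 (CD4 replicate 1 or 2 or CD127hi replicate 1, adjusted p up to 0.201) and Pim1 (any CD4 replicate or CD127hi replicate 1 or 3, adjusted p up to 0.248).

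The mitochondrial complex I genes mt-Nd2 and mt-Nd4 were at 2404, 2958 and 3628 against 1277, 1388 and 1356 CPM and at 2407, 2880.4 and 3755 against 1378, 1326 and 1659.9 CPM, and the ribosomal protein genes Rps15a and Rpl39 at 1125, 2131 and 2845 against 835, 768 and 776 CPM and at 796, 1364 and 2105 against 481, 465 and 439 CPM. All 4 were called higher (adjusted p = 0.00279, 0.0129, 0.00297 and 0.00359), and their levels were highest in CD127hi replicate 3. Mitochondrial genes took 2.71% to 3.53% of the counts on genes in the CD127hi Tregs and 2.06% to 2.53% in the CD4+Foxp3- T cells, and their part in these 4 calls was not tested. The 4 calls were lost in the leave-outs of mt-Nd2 (CD127hi replicate 3, adjusted p up to 0.0554), mt-Nd4 (CD4 replicate 1 or 2 or CD127hi replicate 3, adjusted p up to 0.234), Rps15a (CD127hi replicate 3, adjusted p up to 0.211) and Rpl39 (CD127hi replicate 3, adjusted p up to 0.235).

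The other called genes were Fam129a, H2afz, Mbnl1, Neb, Slc4a7, Tktl1, Tpt1 and Trim7 in the higher direction, and Bcl11a, Clk1, Dennd2d, Dph5, Gimap4, Gle1, Ms4a4b, Rnf167, Slc50a1, Tespa1 and Thoc1 in the lower. Each lost its call without at least 1 library, and the highest adjusted p of a leave-out lay between 0.12 for Rnf167 and 0.719 for Trim7. The groups of Trim7 and Tktl1 overlapped and those of the rest did not.

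Markers of other cell types were read over whole lists, since a sort of few cells can carry RNA of others. The 13 macrophage and monocyte markers summed to 261, 286 and 282 CPM in the CD127hi Tregs and to 18.2, 32.4 and 19.8 CPM in the CD4+Foxp3- T cells. Of these, 1 was called higher and 4 passed with the 6 libraries. Lyz2, which encodes lysozyme, was at 211, 144 and 55.9 CPM in the CD127hi Treg libraries and 0, 0 and 11.8 CPM in the CD4+Foxp3- T cell libraries (log2 fold change 5.11 ± 0.89, adjusted p = 5.65e-05) and was called in each leave-out. Csf1r, the receptor that defines the lineage, was at 16.8, 12.9 and 20.6 against 0.456, 0 and 0 CPM, Vcam1 at 8.49, 56.3 and 105 against 0.456, 1.25 and 2.83 CPM and C1qc, a complement gene of tissue macrophages, at 1.7, 18.7 and 23.7 against 0, 0 and 0 CPM (adjusted p = 0.253, 0.234 and 0.143, and 0.0395, 1.43e-05 and 0.0118 with the 6 libraries). These values stand beside those of Wfdc17 and the other genes at 0 in the CD4+Foxp3- T cells, and their part in those calls was not tested.

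The 12 B cell markers summed to 122, 10.4 and 114 CPM in the CD127hi Tregs and to 28.3, 24.2 and 42.7 CPM in the CD4+Foxp3- T cells, so CD127hi replicate 2 lay below all others. Ms4a1, which encodes CD20, was at 64.1, 0 and 11 against 0.456, 1.5 and 0 CPM and was called higher although the groups overlapped (adjusted p = 5.35e-06, and 0.0263 with the 6 libraries). Cd79b was at 1.91, 1.22 and 56.4 against 0, 0 and 5.92 CPM, also overlapping (adjusted p = 0.0499, and 0.33 with the 6 libraries, where it did not pass), and without CD127hi replicate 3 its log2 fold change was -0.29. Ly6d was called lower at 0, 0 and 3.18 against 16.4, 4.24 and 10.6 CPM (adjusted p = 0.0341) and did not pass with the 6 libraries (0.581). These last calls were lost in the leave-outs of Cd79b (CD4 replicate 1 or 2 or CD127hi replicate 3, adjusted p up to 1) and Ly6d (CD4 replicate 1 or CD127hi replicate 1 or 2, adjusted p up to 0.144). Among 12 genes of MHC class II presentation, none was called in either model or by DESeq2, 3 had an unadjusted p under 0.05 and the median log2 fold change was -0.77, with H2-Ab1 at 52.9, 0 and 29.5 against 74.3, 27.2 and 44.5 CPM (adjusted p = 0.755).

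The 11 plasma cell and immunoglobulin markers summed to 1235, 1463 and 1391 CPM in the CD127hi Tregs and to 622, 569 and 694 CPM in the CD4+Foxp3- T cells, and 3 were called higher. Most of the sum was Ighm, at 939, 1203 and 1183 CPM in the CD127hi Treg libraries and 569.9, 491 and 654 CPM in the CD4+Foxp3- T cell libraries, without overlap (log2 fold change 0.96 ± 0.28, adjusted p = 0.143, and 0.0165 with the 6 libraries). Ighd was at 117, 127 and 164 CPM in the CD127hi Treg libraries and 12.8, 27.7 and 2.32 CPM in the CD4+Foxp3- T cell libraries (log2 fold change 3.25 ± 0.50, adjusted p = 1.41e-06). Jchain was at 33.8, 6.12 and 0 CPM against 0 and Iglc2 at 52.2, 0 and 26.9 against 0, 0 and 3.86 CPM, and the groups of both overlapped (adjusted p = 2.02e-06 and 0.000155). With the 6 libraries the adjusted p was 0.0202 and 0.0576, so Iglc2 did not pass there. Sdc1, which defines plasma cells, was at 0 in all 6 libraries.

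Erythroid markers came from 1 library. Hbb-bs was at 0.425, 0 and 464 CPM and Hbb-bt at 0, 0 and 188 CPM in the CD127hi Tregs, and both were at 0 in the CD4+Foxp3- T cells. They were called higher (adjusted p = 0.000201 and 0.0269), and without CD127hi replicate 3 the adjusted p rose to 0.852 and 1. Hbb-bt was also lost without any CD4 replicate. Gzma, a granzyme gene listed with the NK markers, was at 0, 0.306 and 31.3 CPM against 0, with its call (adjusted p = 0.00279) also resting on CD127hi replicate 3 (adjusted p = 0.852 without it). The CD8 T cell markers Cd8a and Cd8b1 were at 0, 0 and 0 against 4.79, 0 and 2.58 CPM and at 6.79, 0 and 10.4 against 10.5, 11.7 and 30.9 CPM, without a call (1 of them at an unadjusted p under 0.05, none called by DESeq2). The sums of dendritic cell, γδ T cell, neutrophil and platelet markers overlapped between the groups, and none of these markers was called by edgeR, with 1 γδ T cell marker at an unadjusted p under 0.05 and 1 called by DESeq2.

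**Figure D4:**
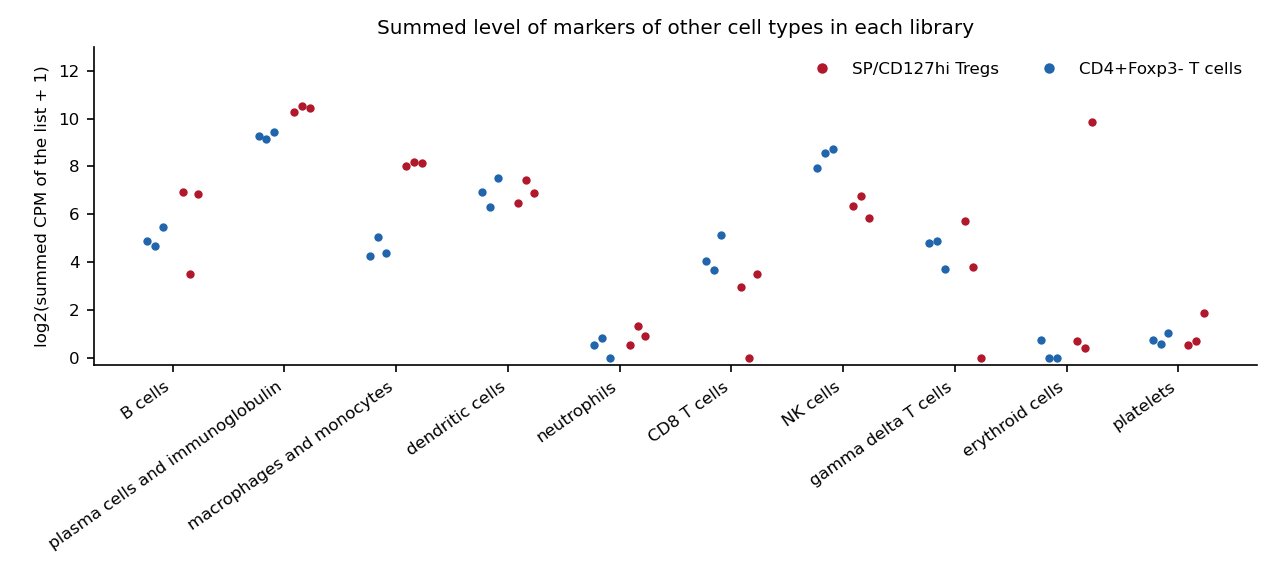
The summed level of each list of markers of other cell types is plotted for each library as log2(summed CPM + 1), CD127hi Tregs in red and CD4+Foxp3- T cells in blue. The macrophage and the plasma cell and immunoglobulin sums lie higher in all 3 CD127hi libraries, the NK cell sums lower, and the erythroid sum reaches 935 CPM in CD127hi replicate 3 alone.

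The lists of cell cycle, early activation and glycolysis genes held no gene called with all libraries. Ccne1, called lower above, is not on the list of cell cycle genes. Of 25 cell cycle genes, 1 passed with the 6 libraries, Tk1, a thymidine kinase gene, at 48.2, 21.1 and 74.1 against 4.56, 4.98 and 0.258 CPM (adjusted p = 0.005), 5 had an unadjusted p under 0.05 with all libraries, DESeq2 called 1, and the median log2 fold change was 0.58. The proliferation marker Mki67 was at 24, 31.5 and 111 against 7.29, 4.24 and 19.3 CPM and Top2a, a topoisomerase of dividing cells, at 43.5, 67.6 and 80.5 against 18.2, 11.2 and 13.4 CPM, without overlap and without a call in either model (adjusted p = 0.42 and 0.328). Of 29 immediate early and NF-κB genes, 5 passed with the 6 libraries, all higher, 3 had an unadjusted p under 0.05 with all libraries, DESeq2 called 1, and the median log2 fold change was 0.89. Tnfaip3, the NF-κB inhibitor A20, was at 314, 102 and 202 against 52, 43.9 and 50.7 CPM (adjusted p = 0.283, and 9.35e-05 with the 6 libraries). Of 16 glycolysis genes, the glucose transporter gene Slc2a3 passed with the 6 libraries, at 59.9, 143 and 149 against 21.7, 14.2 and 23.7 CPM (adjusted p = 0.000342), 1 had an unadjusted p under 0.05 with all libraries, DESeq2 called 1, and the median log2 fold change was -0.38.

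The same contrast in naive mice, SP/naive Tregs against CD4+ T cells, shared no library with the one above. It called 67 genes, 40 higher and 27 lower in Tregs, which is 0.264% of the genes tested. The SP/naive Tregs had not been divided by CD127. Of the 82 genes called in tolerant mice, 29 were also called in naive mice, which is 35.4% of the former and 43.3% of the latter. In 28 of the 29 the direction was the same, 18 higher and 10 lower in Tregs. The other was Mef2c, with a log2 fold change of 3.41 in tolerant and -4.08 in naive mice (adjusted p = 0.037 and 0.0296). Its naive call was lost without SP/naive CD4 replicate 2 or SP/naive Treg replicate 2 or 3. Counting all 82, the log2 fold change had the same sign in naive mice for 69, made up of 38 of the 49 higher and 31 of the 33 lower. The share of all genes tested with the same sign is not given here.

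Ikzf2, Ctla4, Itgae, Lrrc32, Klrg1 and Il1rl1 were higher in Tregs in both. The log2 fold change in naive mice was 2.06 ± 0.23 for Ikzf2 (adjusted p = 3.29e-13) and 5.54 ± 1.29 for Il1rl1 (adjusted p = 0.0147). Klrg1 had 2 read pairs in all in naive CD4+ T cells, a ratio of Tregs over CD4+ T cells of 115 (95% counting interval 31.7 to 958, adjusted p = 0.00962). The naive calls were lost without SP/naive CD4 replicate 1 or 3 for Il1rl1 (adjusted p up to 0.118) and without those or SP/naive Treg replicate 3 for Klrg1 (up to 0.128). Klrg1 was at 25 ± 25.3 CPM in SP/naive Tregs and at 154 ± 30.2 CPM in CD127hi Tregs (mean ± SD, n = 3 each), and Il1rl1 at 27.5 ± 14.6 and 166 ± 63.6 CPM. The test of the difference between the contrasts gave an adjusted p of 0.608 for Klrg1 and of 1 for Il1rl1. Pde3b, Dapl1, Ly6c2, Klrk1, Klrd1 and Spp1 were lower in Tregs in both. In naive mice Spp1 was at 0 in the SP/naive Tregs and at 209.7, 14.9 and 0.392 CPM in the CD4+ T cells, at least 73.9-fold lower on average (adjusted p = 0.00962), a value that SP/naive CD4 replicate 1 carried. That call was lost without SP/naive CD4 replicate 1 or any SP/naive Treg replicate (adjusted p up to 0.285). Klrd1 had 1 read pair in the SP/naive Tregs, a ratio of CD4+ T cells over Tregs of 1270 (95% counting interval 228 to 50300, adjusted p = 9.95e-10). Maf, S100a10 and S100a6 were not called in naive mice, at 0.92 ± 0.43, -0.09 ± 0.29 and 0.10 ± 0.47, and the difference was not called for any of the 3 (adjusted p = 0.925, 0.103 and 0.475).

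The difference between both contrasts was called for 16 genes, 15 with a larger and 1 with a smaller log2 fold change in tolerant mice, which is 0.0631% of the genes tested. At an unadjusted p under 0.05 there were 1698. The smaller one was Il2ra, by -4.81 ± 0.83 (adjusted p = 0.000164). It was at 386 ± 62.8 CPM in CD127hi Tregs and 398 ± 98.7 CPM in SP/naive Tregs, but CD4+Foxp3- T cells held 19.6 ± 3.77 CPM of it in tolerant and 0.674 ± 0.555 CPM in naive mice (mean ± SD, n = 3 each). The Treg levels were thus alike within their spread, and the CD4+Foxp3- levels were apart. Wfdc17 was also called (adjusted p = 0.000164). Both held in each leave-out, and neither did when genes needed 10 or more counts in 3 or more libraries (adjusted p = 0.22 and 0.57). Since the CD4+Foxp3- T cells of tolerant mice had 0 counts of it, the size of that difference is not defined, and its levels in naive mice were 15.8 ± 25.2 CPM in SP/naive Tregs and 7.77 ± 9.29 CPM in CD4+ T cells. Of the 16 genes, 7 had a group at 0 counts and 11 a group under 1 CPM on average, Il2ra with 6 read pairs in naive CD4+ T cells among them.

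**Figure D5:**
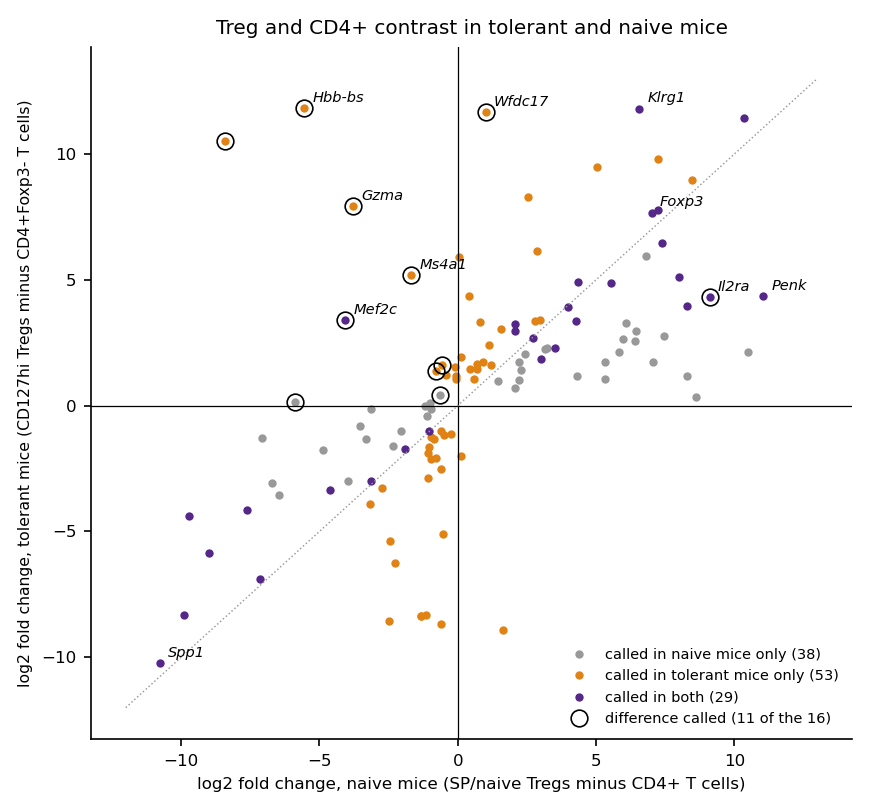
The log2 fold change of Tregs minus CD4+ T cells in tolerant mice (vertical axis, CD127hi Tregs) is plotted against that in naive mice (horizontal axis, SP/naive Tregs) for the genes called in either, with the 29 called in both in purple, 53 called in tolerant mice only in orange and 38 called in naive mice only in grey. Circles mark 11 of the 16 genes whose difference between the contrasts was called, and the dotted line is equality. Genes at 0 in a group are drawn at their fitted values, which depend on the prior count.

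The CD127-/lo Tregs of the same spleens placed the values among Tregs. CD127hi against CD127-/lo Tregs called 23 genes, 15 higher and 8 lower, which is 0.0907% of the genes tested. That comparison shares the 3 CD127hi libraries with the one above, so the values are only set side by side. Il7r, which the sort used, had a log2 fold change of 1.92 ± 0.37 between these Tregs (adjusted p = 0.00163). DESeq2 also called Il7r (adjusted p = 0.00564), but the likelihood ratio test of edgeR did not (adjusted p = 0.296). Ikzf2 was at 7523 ± 3223 CPM in CD127-/lo Tregs and 5004 ± 806 CPM in CD127hi Tregs, against 632 ± 139 CPM in the CD4+Foxp3- T cells (mean ± SD, n = 3 each). Foxp3 was at 353 ± 36.6 and 488 ± 77.1 CPM in the same Tregs, Klrg1 at 43.3 ± 36.6 and 154 ± 30.2 CPM and Il1rl1 at 9.36 ± 6.58 and 166 ± 63.6 CPM. None of these 4 was called between the Treg subsets (adjusted p = 0.485, 0.872, 0.778 and 0.209).

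Of the 82 genes, 6 were called against CD127-/lo Tregs as well. Klrd1 was lower against CD4+Foxp3- T cells (-4.38 ± 0.90). Its CD127hi libraries held 65, 1 and 0 read pairs and the CD127-/lo Tregs none, so it was at least 5.35-fold higher on average against the latter (adjusted p = 0.00252), and without CD127hi replicate 1 that call was lost (adjusted p = 0.799). Arhgdib, a regulator of small GTPases named after its values were seen, had log2 fold changes of -1.26 against CD4+Foxp3- T cells and -1.40 ± 0.30 against CD127-/lo Tregs (adjusted p = 0.00812). Pole3, at 0 in the CD127hi Tregs, was at least 15.1-fold lower than in the CD4+Foxp3- T cells and at least 35.1-fold lower than in the CD127-/lo Tregs (adjusted p = 0.034). Mef2c, a transcription factor gene of B and myeloid cells, was at 2.76, 10.4 and 6.66 against 0, 1.25 and 0.515 CPM in the comparison with CD4+Foxp3- T cells and did not pass there with the 6 libraries (adjusted p = 0.629). The CD127-/lo Tregs held 1 read pair of it, a ratio of CD127hi over CD127-/lo Tregs of 66.9 (95% counting interval 11.6 to 2680, adjusted p = 0.00144). Of the B cell gene Ms4a1 they also held 1 read pair, a ratio of 325 (95% counting interval 57.9 to 12900, adjusted p = 2.57e-08). CD127hi replicate 1 held 302 of its 340 read pairs, and without that library the log2 fold change went from 7.56 to 5.37. Iglc2 differed by 3.14 ± 0.73 on the log2 scale (adjusted p = 0.034). Against CD127-/lo Tregs, the calls of Mef2c and Ms4a1 held in each leave-out, but none of the 23 calls, Il7r among them, held when genes needed 10 or more counts in 3 or more libraries (960 genes at an unadjusted p under 0.05 in edgeR, and 87 called by DESeq2 with the usual filter). DESeq2 called Ms4a1 and Pole3 of the 6 genes but not Arhgdib, Klrd1, Iglc2 or Mef2c (adjusted p = 0.215, 0.141, 0.759 and 0.0607). With the 6 libraries of that comparison alone, Klrd1, Iglc2 and Mef2c did not pass (adjusted p = 0.551, 0.483 and 0.618). The calls of the other genes were lost without CD127-/lo replicate 1 or CD127hi replicate 3 (Arhgdib, adjusted p up to 0.819), CD127-/lo replicate 1 or 2 or CD127hi replicate 1 (Iglc2, up to 0.368) and CD127-/lo replicate 1 or any CD127hi replicate (Pole3, up to 0.224). Against CD4+Foxp3- T cells, the call of Arhgdib was lost without CD4 replicate 1 or CD127hi replicate 3 (adjusted p up to 0.218), that of Mef2c without CD4 replicate 1 or 3 or CD127hi replicate 2 (up to 0.37) and that of Pole3 without CD4 replicate 1 or 3 or any CD127hi replicate (up to 0.223).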

How the data were processed

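Bulk RNA-Seq libraries of sorted splenic cells were analysed, 3 for each group, with groups taken from the labels. By the methods, the authors amplified cDNA with the SMART-Seq v4 kit, made Nextera XT libraries, sequenced spleen and graft on a NextSeq 500 and DLN on a MiSeq, and aligned reads to mm10 with EGFP added. The submitters' processing notes name FastQC, Trim Galore and STAR. The deposited files hold counts of read pairs on each gene, as counted and not scaled. The methods name HTSeq, whereas the file layout is that of the gene counts of STAR, and the unstranded column was taken, so overlapping and antisense genes cannot be told apart. The 4 totals of reads without a gene were left out of the gene table. Positions came from GENCODE on GRCm38, where 119 identifiers had no symbol.

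Tests were run with edgeR 4.0.16, DESeq2 1.42.0 and limma 3.58.1 under R 4.3.3, and figures drawn in Python 3.11.15 with numpy 2.4.6, pandas 2.3.3 and matplotlib 3.10.9. A gene entered the tests if any library, that is at least 1, reached 1 CPM. TMM factors and a model with 1 mean for each of 11 groups were fitted over all 33 libraries, and each contrast went through the quasi-likelihood test of edgeR (glmQLFTest), with Benjamini-Hochberg adjustment over all genes tested and a threshold of 0.05. The difference between the tolerant and the naive contrast was tested as an interaction. The SE was the log2 fold change over the square root of F. A group at 0 was set at 3 counts for a lower bound of the fold, and with 1 to 3 counts an exact 95% interval of the ratio of counts was given. The fit was tested on simulated data with 200 genes changed. The model of all 33 libraries recovered 49 of them with 1 false call, 4% of the 4-fold and 45% of the 16-fold changes. The model of the 6 libraries recovered 77 with 4 false calls, 10% and 67% of these changes. A gene without a call may thus still differ.

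Genes named were those of the sort and its markers, in each direction up to 10 of the largest log2 fold changes of called genes without overlap and with a mean of at least 10 CPM, up to 6 per list with the smallest adjusted p with any called, and up to 6 per direction of the difference. The gene lists and the comparison were chosen with earlier results of these data known. Alternatives were edgeR's likelihood ratio test (used by the study), DESeq2, RLE normalization, other filters, models of fewer libraries, a block for the replicate number, and each library left out in turn. The authors' own comparisons, DLN and graft contrasts were not analysed here. Values of some list members are not reported here.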

Additional observations from a re-analysis of the deposited data

Results flagged for a closer look

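In 16 genes the Treg against CD4+ T cell difference of tolerant mice differed from that of naive mice by edgeR's quasi-likelihood test of the interaction, and values are given as log2 differences, tolerant minus naive. For Il2ra the value was -4.81, for Tmsb4x 1.07, for Rps27 1.65 and for Wfdc17 10.66, and these 4 were called in each of the 12 leave-outs. None of the 16 was called when genes needed 10 or more counts in 3 or more libraries, where the adjusted p of these 4 was 0.22, 0.606, 0.525 and 0.57 (690 genes had an unadjusted p under 0.05 in edgeR, and DESeq2 called 52 with the usual filter). DESeq2 did not call Tmsb4x, Rps27 or Wfdc17 (adjusted p = 0.898, 0.338 and 0.222), nor did the likelihood ratio test call Tmsb4x or Rps27 (0.771 and 0.558). Il2ra encodes CD25, Tmsb4x the actin-binding thymosin β4 and Rps27 a ribosomal protein. The ribosomal protein genes Rpl39 and Rps15a were at 2.19 and 2.13, and the mitochondrial gene mt-Cytb was at 1.12. The likelihood ratio test called none of these 3 genes (adjusted p = 0.416, 0.398 and 0.767). DESeq2 called Rps15a (0.0295) but not Rpl39 or mt-Cytb (0.0993 and 0.963). The call of Rps15a was lost without SP/naive CD4 replicate 2 (adjusted p = 0.0792) and that of mt-Cytb without SP/naive CD4 replicate 3 or SP/naive Treg replicate 3 (up to 0.171). Rpl39 was not called without SP/naive CD4 replicate 2, tolerant CD4 replicate 3, SP/naive Treg replicate 3 or CD127hi replicate 3 (up to 0.294).

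The B cell genes Cd79a, Ms4a1 and Ebf1 were at 8.02, 6.87 and 6.02, and Mef2c, expressed in B and myeloid cells, was at 7.49. DESeq2 called none of these 4 genes (adjusted p = 0.691, 0.319, 0.323 and 0.0573). With the compared libraries alone none passed either (0.528, 0.255, 0.668 and 0.613). The likelihood ratio test called Mef2c (0.0122) but not Cd79a, Ms4a1 or Ebf1 (0.131, 0.0661 and 0.147). Leaving out 1 library ended the call of Cd79a (SP/naive Treg replicate 3, adjusted p = 0.115), of Ms4a1 (SP/naive CD4 replicate 1, adjusted p = 0.807) and of Mef2c (SP/naive CD4 replicate 2, adjusted p = 0.686), and leaving out SP/naive CD4 replicate 2, tolerant CD4 replicate 3, SP/naive Treg replicate 3 or CD127hi replicate 3 ended that of Ebf1 (adjusted p up to 0.827). The globin genes Hbb-bt, Hbb-bs and Hba-a1 were at 18.92, 17.37 and 16.69, and Gzma was at 11.71. The calls of Hbb-bt and Hbb-bs were lost without CD127hi replicate 3 or SP/naive CD4 replicate 1 (adjusted p up to 1). That of Hba-a1 was lost without those or SP/naive Treg replicate 3, and that of Gzma without CD127hi replicate 3 or SP/naive CD4 replicate 3. Emp1, an epithelial membrane protein gene, was at 16.04 and was not called without CD127hi replicate 2, any tolerant CD4 replicate or any SP/naive Treg replicate (adjusted p up to 0.174). Emp1, Cd79a, Hbb-bt, Hbb-bs, Hba-a1, Wfdc17 and Gzma had 0 counts in at least 1 of the 4 groups, so their fitted differences depend on the prior count and are no measure of size. Il2ra, Ebf1, Mef2c and Ms4a1 had a group under 1 CPM on average, and the size of their differences rests on few read pairs.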

How the results depend on the processing

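Of 4 counts of called genes, RLE normalization moved none by over 1.5 times. The 82 genes of CD127hi Tregs against CD4+Foxp3- T cells became 37 with the likelihood ratio test, 271 with DESeq2, 26 with at least 10 counts in at least 3 libraries, 597 with the 6 compared libraries and 304 with the 24 spleen and graft libraries, and 47 (without CD127hi replicate 3) to 81 (without CD127hi replicate 2) in the leave-outs, with 48 without CD4 replicate 1. All 82 passed the stricter filter, 24 of them with a call. The 67 genes of the naive contrast became 192 with DESeq2, 35 with the stricter filter, 170 with its own libraries and 230 with 24, and 45 to 72 in the leave-outs. The 16 differences became 10 with the likelihood ratio test, 52 with DESeq2, 25 without a filter, 0 with the stricter filter (690 at an unadjusted p under 0.05 in edgeR, against 52 calls by DESeq2 with the usual filter), 51 with the compared libraries and 66 with 24. In the leave-outs they were 12 (without SP/naive Treg replicate 3) to 29 (without SP/naive CD4 replicate 1), with 25 without SP/naive CD4 replicate 2 and 27 and 25 without CD127hi replicates 1 and 2. The 23 genes against CD127-/lo Tregs became 10, 87, 35, 0 (960 at an unadjusted p under 0.05), 114 and 140 under the same settings, and 14 (without CD127-/lo replicate 1) to 33 in the leave-outs. The cause of these shifts was not tested. Among named genes, Cd79b ran from -0.29 (without CD127hi replicate 3) to 8.84 (without CD4 replicate 3) and Il7r from -0.07 (without CD4 replicate 2) to 0.24 (without CD4 replicate 1).

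CD127hi and CD4+Foxp3- libraries with the same replicate number did not deviate together (r = 0.02, 0 and 0.03 over 8352 genes). No pairing by number was thus seen, and whether same-numbered libraries share mice cannot be told from these values. With the replicate block, 100 genes were called, 77 of the 82 among them, and 507 with the block and the 6 libraries alone, while 13 differences were called, 9 of the 16 among them. Rpl39, Ebf1, Emp1, Gzma, Hbb-bt, Hbb-bs and Hba-a1 lost the call (adjusted p = 0.0892 to 1). At this depth, a count of 0 in 1 of the 6 libraries allowed a level of up to 0.637 to 0.918 CPM.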
